A study of Mus musculus with 28 samples.

Results

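This report describes messenger RNA bound to tagged ribosomes of CaMK2a-Cre cells in the mouse CA1 after kainic acid, set against the lysate from which those ribosomes were precipitated. The comparison took in the 3 CaMK2a immunoprecipitated (IP) libraries and the 3 CaMK2a input libraries of kainic acid-treated mice, 6 of the 28 libraries of the series, chosen by their labels for line, treatment and fraction. The series used RiboTag mice, in which Cre recombinase switches on an HA-tagged copy of the ribosomal protein Rpl22, and its title concerns inhibitory plasticity around Fos-expressing neurons. Ribosomes were pulled down with 12 ug of anti-HA antibody, and a small part of each lysate was kept as input.

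The CaMK2a IP and input libraries after kainic acid came from CaMK2a-Cre/+; LSL-Rpl22-HA/+ mice on the C57BL/6 background, 3 to 4 weeks old, killed 6 h after an intraperitoneal injection of kainic acid, with the CA1 of 4 mice pooled per replicate. CaMK2a IP and input libraries after phosphate-buffered saline (PBS), 3 each, came from mice of the same genotype, strain, age and pool size. PV IP and input libraries after kainic acid, 4 each, came from PV-Cre/+; LSL-Rpl22-HA/+ mice of the same strain and age, 6 h after the same injection, with 9 to 10 mice per pool. All of these groups, PBS controls included, carry the Cre and the tagged Rpl22 allele. The labels give 6 h for both injections, whereas the deposited column names mark the PBS libraries with 0 h, so the time after PBS is uncertain. Cre was driven by the CaMK2a or PV promoter, and recombination outside the intended cells was not measured. Libraries of the CaMK2a line were made from 20 ng of RNA and those of the PV line from 2.5 ng.

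CaMK2a is a calcium-dependent kinase of forebrain excitatory neurons, and in CA1 its promoter marks the pyramidal cells, the glutamatergic output neurons of the region. Parvalbumin (PV) interneurons are GABA-releasing cells that contact the bodies and initial axon segments of those pyramidal cells. Kainic acid activates glutamate receptors, provokes seizures and induces immediate early genes, and seizures are also followed by a response of astrocytes, microglia and blood vessels. An IP recovers the ribosome-associated transcripts of the tagged cells over a background of RNA from the whole tissue, and the input holds the RNA of all cells of the lysate.

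The IP libraries after kainic acid held 7926872, 9430917 and 9754459 counts in genes and the input libraries 8044841, 8743532 and 6061293. Of the 11076 genes tested with edgeR's quasi-likelihood test, 2689 (24.3%) were higher in the IP and 2860 (25.8%) lower at an adjusted p under 0.05, the threshold behind the word called below. A difference of at least 2-fold was added to the call for 998 genes (9.01%) higher and for 1842 genes (16.6%) lower. Levels in CPM, counts scaled to library size with TMM factors, did not overlap between the 3 IP and the 3 input libraries for 3128 genes (28.2%) higher and 3384 genes (30.6%) lower. The median log2 fold change of all tested genes was -0.02, and the biological coefficient of variation was 17.7%. In the authors' deposited table of the same comparison, 2843 genes were higher and 3062 lower at an adjusted p under 0.05, and 5426 genes were called in the same direction in both. Mice were pooled within each replicate, so the spread is between pools and not between mice. Fewer cells of a type and less RNA per cell cannot be told apart in bulk libraries.

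Of the 14 pyramidal neuron genes tested, 7 were higher in the IP and 1 lower, with a median log2 fold change of 0.70. Over all genes, 24.3% were higher and 25.8% lower. Camk2a itself, the kinase gene whose promoter drives the Cre, had 6053, 7107 and 6179 CPM in the IP libraries and 5877, 5740 and 5580 CPM in the input libraries. Each IP value lay above each input value, yet the log2 fold change of 0.17 ± 0.12 (SE) was not called (adjusted p = 0.263). Neurod6, a transcription factor of excitatory forebrain neurons, had 302.5, 292.5 and 254.9 CPM in the IP and 69.7, 87.8 and 63.3 CPM in the input. The groups were far apart, with a log2 fold change of 1.94 ± 0.15 (adjusted p = 3.93e-06). Dkk3, a secreted Wnt pathway modulator, and Pou3f1, a POU transcription factor, were higher by 1.13 and 1.32 on the log2 scale.

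The 1 lower gene of that list was Slc17a7, the vesicular glutamate transporter of these cells, with 620.6, 907.3 and 755.9 CPM in the IP and 1204, 1031 and 1113 CPM in the input. All IP values were below all input values, and the log2 fold change was -0.55 ± 0.15 (adjusted p = 0.00971). Per length, Camk2a stood at 338.9 RPKM in the IP and 332.8 RPKM in the input, and Slc17a7 at 73.0 RPKM in the IP and 118.2 RPKM in the input, by the deposited values. Of 11 genes of the neighbouring CA2 and CA3 fields, 1 was higher and 5 lower, beside 24.3% higher and 25.8% lower over all genes. Their median was -0.47, and their higher count ran from 0 to 2 over the other settings. Among them Amigo2, an adhesion molecule of CA2 and CA3, had 9.40, 4.86 and 6.63 CPM in the IP and 15.6, 23.03 and 15.5 CPM in the input (log2 fold change -1.39 ± 0.28). Of 7 dentate granule cell genes tested, 1 was higher and 1 lower, and the lower count ran from 0 to 1 in other settings. The higher one was Calb1, a calcium buffer also found in CA1 pyramidal cells, with 113.0, 78.5 and 99.8 CPM in the IP against 29.8, 27.6 and 27.9 CPM in the input.

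**Figure D1:**
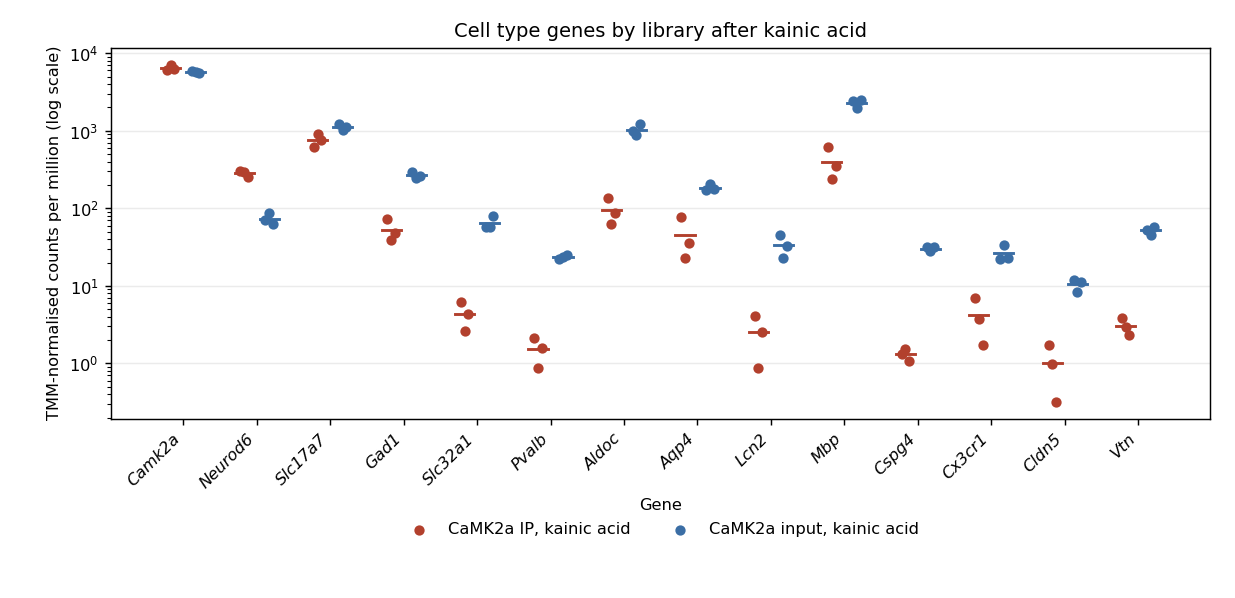
TMM-normalised CPM (log axis) of 14 cell type genes in the 3 CaMK2a IP libraries (left of each pair) and the 3 CaMK2a input libraries (right of each pair) after kainic acid, with a bar at each group mean. Neurod6 sits higher in the IP, Camk2a is close to level, and the interneuron, glial and vascular genes sit far lower in the IP.

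Interneuron transcripts were depleted from the IP. Pvalb, the calcium-binding protein that names the PV interneuron (chromosome 15, 78191117 to 78206351, mm10), had 2.12, 0.884 and 1.604 CPM in the IP and 22.4, 23.6 and 24.98 CPM in the input. None of the IP values reached the input range, and the log2 fold change was -3.95 ± 0.29 (adjusted p = 3.18e-06). Slc32a1, the vesicular GABA transporter, had 6.22, 2.65 and 4.28 CPM in the IP against 57.2, 57.4 and 79.4 CPM in the input, a log2 fold change of -3.90 ± 0.27. The GABA-synthesising enzymes were depleted less. Gad1 had 72.7, 38.5 and 48.4 CPM in the IP and 291.1, 247.3 and 263.3 CPM in the input (-2.33 ± 0.21), and Gad2 had 151.1, 81.6 and 120.8 CPM in the IP and 413.3, 501.1 and 404.8 CPM in the input (-1.90 ± 0.20). Beside 24.3% higher and 25.8% lower over all genes, 11 of 13 general GABAergic genes tested were lower and 0 higher. Their median log2 fold change was -2.33. Their summed level was 396.2, 191.1 and 272.2 CPM in the IP and 1605, 1597 and 1605 CPM in the input, so the IP held 0.179 of the input level and was highest in IP replicate 1.

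Of 9 PV interneuron genes, 6 were lower and 0 higher, against 25.8% lower and 24.3% higher over all genes. Their median was -0.83. Pvalb was the furthest down, and Cox6a2, a muscle-type cytochrome oxidase subunit enriched in PV cells, followed at -2.33 ± 0.49. Genes of other interneuron classes split: 8 of 12 were lower and 2 higher, median -1.32. Reln, the secreted reelin glycoprotein, had 21.7, 13.6 and 12.5 CPM in the IP and 87.3, 89.0 and 95.4 CPM in the input (-2.51 ± 0.20). Sst, the somatostatin precursor, had 1100, 408.6 and 990.3 CPM in the IP and 1636, 1122 and 2044 CPM in the input. IP replicate 2 stood below the other IP libraries, and the IP values stayed below the input ones. The log2 fold change of Sst was -0.94 ± 0.31 (adjusted p = 0.0247), a call that was lost with DESeq2 and on leaving out IP replicate 3, input replicate 1 or input replicate 3. Cck, a neuropeptide gene that pyramidal cells also transcribe, was higher in the IP, with 1903, 2473 and 2418 CPM against 1326, 1303 and 1715 CPM in the input (0.65 ± 0.15).

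Most genes of the glial, vascular and blood lists were lower in the IP, against 25.8% of all genes. All 19 astrocyte genes tested were lower in the IP (median -2.42), as were all 19 microglial genes (-3.23), all 15 oligodendrocyte genes (-2.84), all 10 oligodendrocyte precursor genes (-2.78) and all 6 blood genes (-3.16). Of 18 endothelial genes 17 were lower (-2.83), of 11 mural cell genes 9 (-2.89), and of 13 genes of fibroblasts, ependyma and choroid plexus 11 (-3.16). None of these lists had a member called higher except the last, where Dcn, a matrix proteoglycan, had 100.7, 112.8 and 147.3 CPM in the IP and 56.7, 50.2 and 51.7 CPM in the input. The summed endothelial list was 677.9, 739.4 and 753.9 CPM in the IP and 1250, 1096 and 1201 CPM in the input. That sum kept 0.612 of the input level, against 0.195 for the astrocyte list.

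Vtn, the adhesive glycoprotein vitronectin made by pericytes (chromosome 11, 78499120 to 78502325), had 3.84, 2.98 and 2.35 CPM in the IP and 52.1, 46.0 and 57.4 CPM in the input. No library of one group came near the other, and the log2 fold change was -4.09 ± 0.22 (adjusted p = 7.63e-07). Cspg4, the NG2 proteoglycan of oligodendrocyte precursors and pericytes, had 1.32, 1.55 and 1.07 CPM in the IP and 31.4, 28.2 and 31.3 CPM in the input, a log2 fold change of -4.51 ± 0.25. Csf1r, the microglial growth factor receptor, had 14.0, 7.62 and 8.02 CPM in the IP and 124.3, 127.4 and 151.6 CPM in the input (-3.78 ± 0.23). Mbp, the myelin basic protein gene, had 610.1, 235.8 and 351.1 CPM in the IP and 2405, 1983 and 2522 CPM in the input (-2.53 ± 0.28). Cldn5, a tight junction protein of the endothelium, had 1.72, 0.994 and 0.321 CPM in the IP and 11.8, 8.31 and 11.3 CPM in the input. In each of these genes the IP and input ranges were apart, which the naming rule required of Cspg4 and Csf1r.

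Astrocyte genes in the IP varied between libraries. Aqp4, the astrocytic water channel, had 78.3, 22.8 and 36.2 CPM in the IP and 169.9, 205.5 and 175.9 CPM in the input, a log2 fold change of -2.01 ± 0.34 (adjusted p = 0.000447). The summed level of the 19 astrocyte genes was 3105, 1552 and 2236 CPM in the IP and 11530, 12180 and 11590 CPM in the input. IP replicate 1 was also the highest IP library in the summed oligodendrocyte list (1994, 686.4 and 1023 CPM in the IP, 6931, 6202 and 6685 CPM in the input) and microglial list (180.0, 90.7 and 124.3 CPM in the IP, 915.1, 906.7 and 1166 CPM in the input). Of the cell type lists, only the blood list had a member at 0 in all IP libraries, S100a8. Ttr, the transthyretin gene of the choroid plexus, differed widely between pools, with 399.5, 157.1 and 4.06 CPM in the IP and 3237, 4148 and 21.1 CPM in the input. Within each replicate number Ttr was lower in the IP, but the groups overlapped.

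Genes of the reactive astrocyte and inflammatory lists were mostly lower in the IP, against 25.8% lower over all genes. Lcn2, the secreted lipocalin that reactive astrocytes release after seizures (chromosome 2, 32384637 to 32387739), had 4.10, 0.884 and 2.57 CPM in the IP and 45.2, 22.9 and 32.9 CPM in the input. The log2 fold change was -3.76 ± 0.41 (adjusted p = 2.36e-05) and the ranges were apart. Of 21 reactive astrocyte genes tested, 20 were lower and 0 higher, with a median of -2.09, and their summed level was 398.7, 315.8 and 413.0 CPM in the IP and 1031, 705.9 and 1143 CPM in the input. Of 16 cytokine and inflammatory genes tested, 15 were lower and 0 higher, with a median of -2.79. Icam1, a leukocyte adhesion molecule, had 2.51, 0.994 and 0.962 CPM in the IP and 11.3, 10.96 and 16.5 CPM in the input. Vcam1, a related adhesion molecule, had 11.4, 1.44 and 6.42 CPM in the IP and 45.8, 61.0 and 40.3 CPM in the input.

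**Figure D2:**
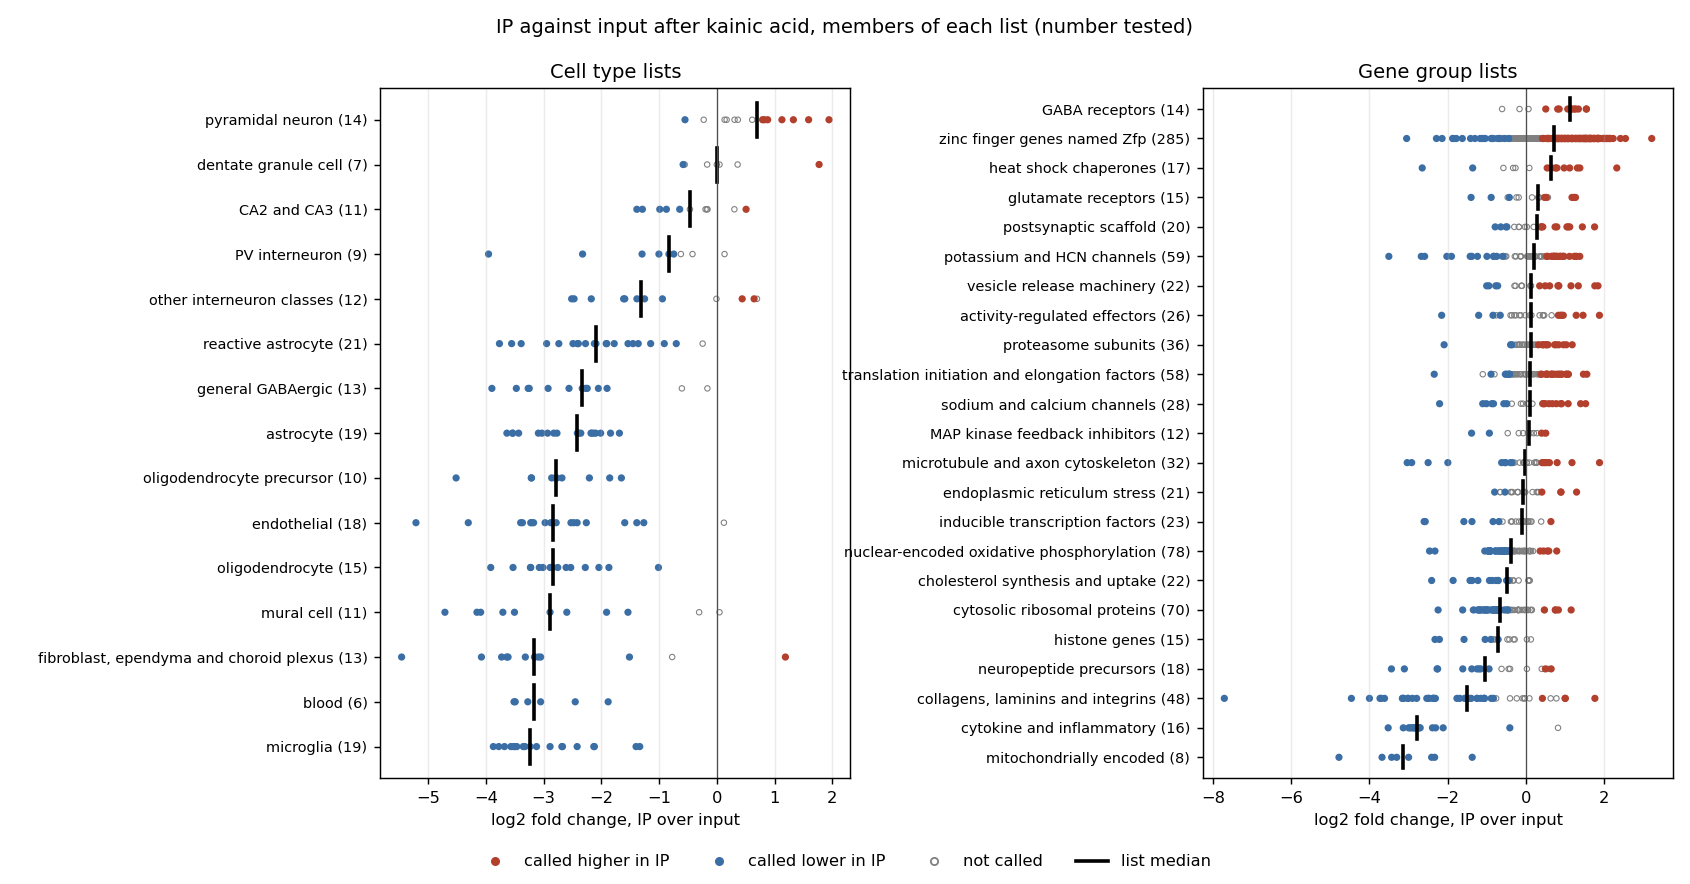
Log2 fold change of each tested list member, IP over input after kainic acid, for 15 cell type lists (left) and 23 gene groups (right), with the number of members tested in parentheses. Filled points were called higher or lower, open points were not called, and bars mark list medians, which run from 0.70 for pyramidal neurons to -3.23 for microglia among the cell types. The leftmost point of the collagen group is Lamc3, which had 0 counts in the IP libraries, so that its fitted value depends on the prior count.

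Of 23 inducible transcription factor genes tested, 1 was higher and 6 were lower, beside 24.3% higher and 25.8% lower over all genes. The share lower was near that over all genes. The list median was -0.11, and with the replicate block 2 were higher and 9 lower. Fos, the activity marker in the title of the study, had 609.5, 327.0 and 537.6 CPM in the IP and 591.3, 407.2 and 492.1 CPM in the input. The ranges overlapped, and the log2 fold change of -0.02 ± 0.21 (adjusted p = 0.958) changed sign between settings. Npas4, a neuron-specific activity-dependent transcription factor, had 1444, 790.5 and 1106 CPM in the IP and 1114, 722.5 and 712.0 CPM in the input (0.39 ± 0.22, adjusted p = 0.169). Egr3, a zinc finger factor of the same response, had 1622, 1662 and 1468 CPM in the IP and 1163, 1040 and 848.3 CPM in the input, with a log2 fold change of 0.64 ± 0.14 (adjusted p = 0.00276). Maff, a small leucine zipper factor, was among the 6 lower genes, with 14.6, 5.08 and 5.99 CPM in the IP and 49.8, 37.8 and 63.3 CPM in the input (-2.57 ± 0.34). The Kruppel-like factor genes Klf2 (-2.60 ± 0.59) and Klf4 (-1.59 ± 0.36) and the Fos family gene Fosl1 (-1.38 ± 0.38) were also lower, as were Ier2 (-0.84 ± 0.28) and Csrnp1 (-0.69 ± 0.22). The call for Fosl1 was lost without IP replicate 3, input replicate 1 or input replicate 3. The median of the list moved between -0.44 and 0.08 over the other settings, so no direction is given for the list.

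Of 26 activity-regulated effector genes tested, 7 were higher and 4 lower, beside 24.3% higher and 25.8% lower over all genes. Scg2, the precursor of the neuropeptide secretoneurin, had 6136, 3474 and 4905 CPM in the IP and 1519, 1127 and 1301 CPM in the input. The lowest IP library was above the highest input library, with a log2 fold change of 1.88 ± 0.20 (adjusted p = 2.01e-05). Inhba, which codes for an activin subunit, had 3553, 2412 and 3310 CPM in the IP and 1456, 1315 and 1035 CPM in the input (1.28 ± 0.17). Bdnf, the brain-derived neurotrophic factor gene, had 992.3, 544.9 and 786.2 CPM in the IP and 479.4, 442.3 and 336.5 CPM in the input, a log2 fold change of 0.88 ± 0.21 (adjusted p = 0.00372). Rgs2, a regulator of G protein signalling, had 883.4, 616.1 and 1037 CPM in the IP and 290.5, 308.9 and 322.2 CPM in the input, and the polo-like kinase gene Plk2 had 1074, 1071 and 1260 CPM in the IP and 628.4, 562.1 and 566.6 CPM in the input. All these IP values stood above the input values. Per length, Scg2 averaged 540.8 RPKM in the IP and 162.6 RPKM in the input, and Inhba 346.7 RPKM in the IP and 156.9 RPKM in the input.

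Arc, a synaptic regulator whose mRNA is carried into dendrites, had 1372, 842.8 and 1568 CPM in the IP and 1774, 1282 and 1797 CPM in the input. The ranges overlapped, and the log2 fold change of -0.36 ± 0.21 was not called (adjusted p = 0.180). Gem, a small GTPase that inhibits calcium channels, had 8.73, 6.85 and 8.23 CPM in the IP and 33.5, 35.5 and 36.9 CPM in the input (-2.15 ± 0.18). The median of the 26 effector genes was 0.12. Fitted with the replicate number as a block, 12 were higher and 7 lower, and Npas4 (0.38, adjusted p = 0.0157) and Arc (-0.39, adjusted p = 0.0124) were called. Of 12 feedback inhibitors of MAP kinase signalling, 2 were higher and 2 lower, beside 24.3% higher and 25.8% lower over all genes. The higher count of that list ran from 0 to 3 over the other settings. Spry1, a Sprouty family member, was among the lower genes at -1.39 ± 0.24.

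**Figure D3:**
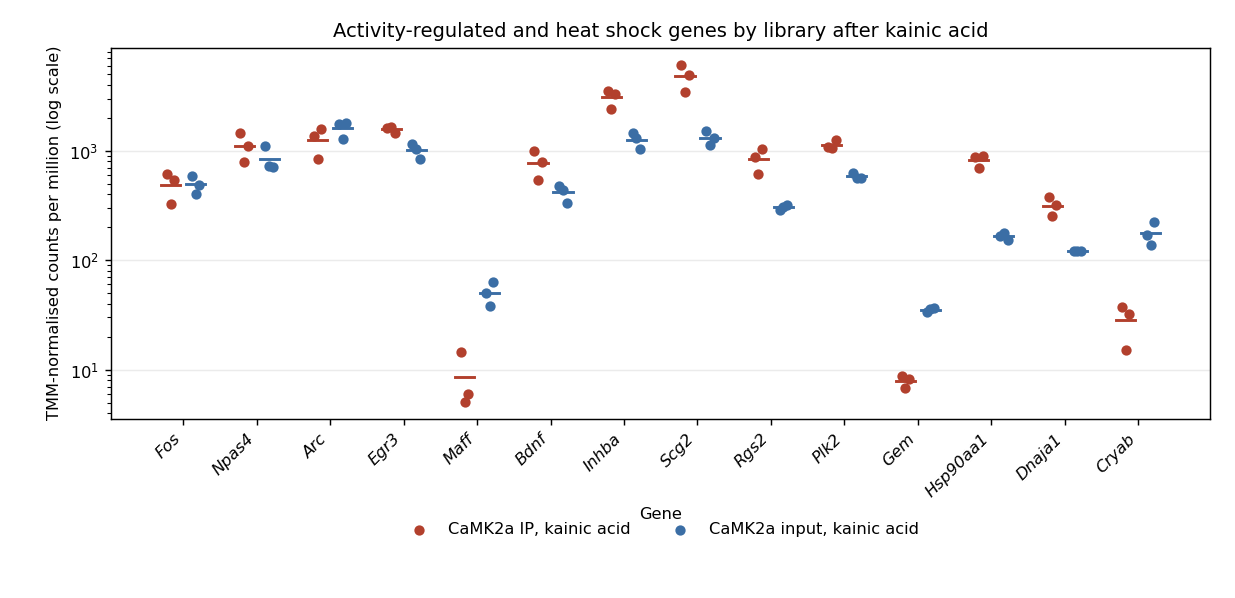
TMM-normalised CPM (log axis) of 11 activity-regulated genes and 3 chaperone genes in the 3 CaMK2a IP libraries (left of each pair) and the 3 CaMK2a input libraries (right of each pair) after kainic acid, with a bar at each group mean. Fos, Npas4 and Arc overlap between fractions, Bdnf, Inhba, Scg2, Rgs2 and Hsp90aa1 lie higher in the IP, and Maff, Gem and Cryab lie lower.

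Counts of neuropeptide and chaperone genes stand beside 24.3% higher and 25.8% lower over all genes. Neuropeptide precursors were mostly lower in the IP, with 10 of 18 lower and 2 higher and a median of -1.05. Pnoc, the nociceptin precursor of interneurons, had 7.81, 3.09 and 5.45 CPM in the IP and 42.2, 31.3 and 66.7 CPM in the input. Heat shock chaperones were mostly higher in the IP, with 9 of 17 higher and 2 lower and a median of 0.65. Hsp90aa1, the inducible cytosolic HSP90, had 886.4, 702.6 and 894.1 CPM in the IP and 167.3, 177.1 and 151.7 CPM in the input, a log2 fold change of 2.32 ± 0.14 (adjusted p = 1.23e-06). The co-chaperone gene Dnaja1 had 375.1, 252.8 and 320.4 CPM in the IP and 122.0, 121.9 and 120.9 CPM in the input. Cryab, a small heat shock protein abundant in glia, had 37.5, 15.02 and 32.1 CPM in the IP and 170.9, 136.8 and 222.3 CPM in the input. With the replicate block 11 of the chaperones were higher and 4 lower.

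In the endoplasmic reticulum, where secreted proteins fold, the HSP90 paralogue gene Hsp90b1 was higher in the IP by 1.29 ± 0.14 on the log2 scale and the BiP gene Hspa5 by 0.90 ± 0.16. Their list as a whole had 4 of 21 higher and 2 lower, both shares below the 24.3% higher and 25.8% lower over all genes. With the replicate block 6 of that list were higher and 6 lower. Cholesterol synthesis and uptake genes had no member higher and 12 of 22 lower, with a median of -0.49. Dhcr7, the enzyme of the final step of cholesterol synthesis, had 27.3, 21.4 and 22.99 CPM in the IP and 72.8, 48.1 and 65.2 CPM in the input.

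Counts of receptor, channel, synaptic and proteasome genes stand beside 24.3% higher and 25.8% lower over all genes. Of 14 GABA receptor genes 11 were higher and 0 lower, with a median log2 fold change of 1.12. Gabra2, a subunit of the GABA-A receptor, had 205.1, 156.6 and 231.8 CPM in the IP and 71.5, 70.1 and 61.8 CPM in the input. Of 15 glutamate receptor genes 5 were higher and 3 lower. Grin2b, an NMDA receptor subunit, had 2343, 3080 and 2302 CPM in the IP and 1149, 1304 and 844.8 CPM in the input (1.23 ± 0.18). Grin2d, the NMDA subunit typical of interneurons, was lower at -1.40 ± 0.30.

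Of 59 potassium and HCN channel genes, 21 were higher and 13 lower. Kcnd2, a channel that carries the A-type current of pyramidal dendrites, had 203.1, 202.8 and 182.1 CPM in the IP and 87.3, 81.8 and 69.97 CPM in the input (1.30 ± 0.14). Kcnj10, the inward rectifier of astrocytes, had 90.1, 29.3 and 41.8 CPM in the IP and 307.8, 341.0 and 317.1 CPM in the input (-2.59 ± 0.32). Of 28 sodium and calcium channel genes, 11 were higher and 7 lower. Cacnb4, an auxiliary calcium channel subunit, had 807.0, 591.0 and 748.1 CPM in the IP and 284.5, 252.6 and 207.4 CPM in the input, and Scn3b, an auxiliary sodium channel subunit, had 452.3, 334.1 and 322.2 CPM in the IP and 159.8, 136.6 and 124.0 CPM in the input. Both were separated between fractions.

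Of 22 vesicle release genes, 10 were higher and 4 lower. Snap25, a core SNARE of the presynaptic membrane, had 20940, 18840 and 20310 CPM in the IP and 5990, 6585 and 5158 CPM in the input, a log2 fold change of 1.76 ± 0.13 (adjusted p = 3.18e-06). Per length it averaged 2505 RPKM in the IP and 815.6 RPKM in the input. Sv2a, a synaptic vesicle glycoprotein, went the other way, with 177.2, 150.2 and 169.4 CPM in the IP and 352.5, 306.1 and 298.2 CPM in the input (-0.95 ± 0.13). Of 20 postsynaptic scaffold genes, 10 were higher and 4 lower. Cnksr2, a scaffold of Ras signalling, had 1183, 1294 and 1146 CPM in the IP and 361.3, 414.8 and 297.4 CPM in the input (1.75 ± 0.15), whereas Shank3, a master scaffold of the postsynaptic density, had 86.7, 66.7 and 67.9 CPM in the IP and 124.6, 129.9 and 126.8 CPM in the input (-0.79 ± 0.14). Of 32 cytoskeletal genes 8 were higher and 9 lower, shares near those over all genes, with the neurofilament gene Nefm at 1.88 ± 0.18 and the tubulin gene Tubb2b at -2.50 ± 0.24.

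Transcripts of the mitochondrial genome were strongly depleted from the IP. They took 0.927%, 0.624% and 0.926% of counts in the IP libraries and 6.20%, 7.25% and 7.49% in the input libraries. All 8 mitochondrially encoded genes tested were lower, with a median log2 fold change of -3.15. mt-Co1, a cytochrome oxidase subunit, had 3226, 1687 and 2740 CPM in the IP and 25700, 30750 and 26220 CPM in the input. Beside 24.3% higher and 25.8% lower over all genes, nuclear genes of oxidative phosphorylation had 5 of 78 higher and 34 lower. These genes, which are translated in the cytosol, differed less, with a median of -0.38. Over the other settings their lower count ran from 17 to 46.

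Counts of ribosomal, translation, histone and matrix genes stand beside 24.3% higher and 25.8% lower over all genes. Of 70 cytosolic ribosomal protein genes, 35 were lower in the IP and 5 higher, with a median of -0.66. Rplp1, a subunit of the ribosomal stalk, had 27.4, 31.3 and 35.2 CPM in the IP and 82.4, 85.7 and 120.5 CPM in the input (-1.62 ± 0.18). Rpl4, a protein of the large subunit, had 723.0, 651.2 and 741.0 CPM in the IP and 317.3, 344.1 and 287.6 CPM in the input (1.16 ± 0.13). Of 58 translation factor genes 21 were higher and 7 lower, with a median of 0.12 that ran from -0.01 to 0.17 over the other settings. Eif5b, the factor of subunit joining, had 334.8, 211.1 and 204.3 CPM in the IP and 91.9, 98.8 and 79.8 CPM in the input. Of 36 proteasome genes 12 were higher and 3 lower, with Psma4, a subunit of the catalytic core, at 1.18 ± 0.17. Of 15 histone genes 0 were higher and 6 lower. Of 48 collagen, laminin and integrin genes 4 were higher and 34 lower, with a median of -1.50. Ribosomal protein and histone genes have near-identical copies, among which reads may have been shared.

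Zinc finger genes named Zfp were mostly higher in the IP, with 146 of 285 higher and 21 lower and a median of 0.71, against 24.3% higher and 25.8% lower over all genes. Zfp37 had 56.2, 56.5 and 55.5 CPM in the IP and 8.08, 15.3 and 7.76 CPM in the input (2.42 ± 0.24), and Zfp52 had 15.5, 11.6 and 12.4 CPM in the IP and 2.05, 2.22 and 2.48 CPM in the input (2.54 ± 0.28). Zfp36, an mRNA decay factor with a different kind of finger, had the lowest value of the list at -3.05 ± 0.43. This list is defined by gene name and mixes families, and clustered members share sequence.

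None of the 15 genes named for the largest enrichment was on the pyramidal neuron list. Hmgn5, a nucleosome-binding protein, had 37.2, 34.6 and 31.4 CPM in the IP and 1.57, 6.20 and 2.48 CPM in the input, the largest log2 fold change by the naming rule at 3.29 ± 0.36 (adjusted p = 2.58e-05). Mpdz, a scaffold with many PDZ domains, had 332.5, 347.3 and 181.2 CPM in the IP and 34.3, 40.1 and 30.6 CPM in the input (3.03 ± 0.24). Upf3b, a factor of nonsense-mediated decay, had 21.4, 19.6 and 14.4 CPM in the IP and 3.26, 3.21 and 2.17 CPM in the input (2.66 ± 0.27). Grem1, a secreted BMP antagonist, had 33.4, 18.6 and 25.7 CPM in the IP and 5.55, 3.99 and 2.48 CPM in the input (2.66 ± 0.31). Lack of overlap between fractions was part of the rule that named these genes. The others among the 15 were Cep290, Ccdc55, Zfp52, Dnajc2, Dnttip2, Zfp37, Ssb, Cep83, Bmp3, Rab9b and Hsp90aa1, with log2 fold changes between 2.32 and 2.95. The 15 named for depletion by the same rule were Cspg4, Slc13a3, Vtn, Notch1, C5ar1, Lamb2, Pvalb, Opalin, Slc32a1, Sod3, Pygm, Agt, Pglyrp1, Csf1r and Lcn2, between -4.51 and -3.76. Called genes that the rule left out fell further, with a lowest value of -5.21 in the endothelial list.

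Coding sequences of the enriched genes were richer in adenine. The 30 codons at the middle of the longest annotated coding sequence are printed here for 5 genes per direction. These are the first 5 of the 15 genes named in each direction. Codons for lysine and glutamate (AAA, AAG, GAA and GAG) are in capitals. Sequences are from GENCODE M21 on GRCm38, read 5′ to 3′ on the coding strand. The 5 named for enrichment were Hmgn5 (chromosome X, 109004537 to 109013380), Mpdz (chromosome 4, 81278500 to 81442805), Cep290 (chromosome 10, 100487548 to 100573655), Grem1 (chromosome 2, 113748674 to 113758786) and Upf3b (chromosome X, 37091678 to 37110399).
Hmgn5: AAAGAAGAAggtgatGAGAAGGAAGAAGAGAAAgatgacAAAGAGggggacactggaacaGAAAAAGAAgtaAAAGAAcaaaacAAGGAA
Mpdz: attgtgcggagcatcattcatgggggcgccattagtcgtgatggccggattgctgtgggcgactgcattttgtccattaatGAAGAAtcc
Cep290: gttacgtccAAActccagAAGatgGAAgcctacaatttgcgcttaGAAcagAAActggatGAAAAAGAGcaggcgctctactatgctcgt
Grem1: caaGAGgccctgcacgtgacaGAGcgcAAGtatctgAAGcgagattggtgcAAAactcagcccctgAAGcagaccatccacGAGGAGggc
Upf3b: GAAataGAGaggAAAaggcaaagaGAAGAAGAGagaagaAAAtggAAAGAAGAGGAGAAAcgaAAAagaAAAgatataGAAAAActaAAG

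The 5 named for depletion were Cspg4 (chromosome 9, 56865104 to 56899870), Slc13a3 (chromosome 2, 165405295 to 165473225), Vtn, Notch1 (chromosome 2, 26457902 to 26503822) and C5ar1 (chromosome 7, 16246743 to 16259540).
Cspg4: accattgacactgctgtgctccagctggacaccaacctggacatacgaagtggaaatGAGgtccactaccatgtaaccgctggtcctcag
Slc13a3: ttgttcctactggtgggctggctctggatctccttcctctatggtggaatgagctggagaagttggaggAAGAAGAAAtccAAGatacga
Vtn: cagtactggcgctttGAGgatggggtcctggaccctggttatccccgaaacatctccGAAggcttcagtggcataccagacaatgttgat
Notch1: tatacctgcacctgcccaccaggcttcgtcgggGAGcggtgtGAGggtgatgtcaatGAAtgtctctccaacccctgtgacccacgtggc
C5ar1: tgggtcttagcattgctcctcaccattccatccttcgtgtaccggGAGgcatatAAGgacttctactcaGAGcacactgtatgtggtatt

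In these windows Hmgn5 held 18 capital codons of 30 and Upf3b 17, Cep290 and Grem1 8 each and Mpdz 2, whereas Slc13a3 held 4, Notch1 and C5ar1 3 each, Vtn 2 and Cspg4 1. Across the whole coding sequence such codons made up 41.4% in Hmgn5, 29.5% in Upf3b, 27.0% in Cep290, 15.2% in Grem1 and 11.7% in Mpdz. They made up 7.82% in Cspg4, 8.50% in Slc13a3, 11.9% in Vtn, 7.82% in Notch1 and 5.70% in C5ar1. The share in Mpdz lay below the 12.5% median of all genes, and Pvalb, among the 15 genes named for depletion, had 22.7%.

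Over the 10958 genes with an annotated coding sequence (98.9% of those tested), the median adenine content was 29.0% in genes called higher, 23.1% in genes called lower and 25.3% in all. The median share of lysine and glutamate codons was 14.8%, 10.95% and 12.5% in the same order, and the median GC content 48.6%, 55.7% and 53.3%. In the third of genes with the most adenine, 48.9% were called higher and 11.3% lower, and in the third with the least, 6.05% were called higher and 40.3% lower. Across genes, which are not independent replicates, Spearman's rho between the log2 fold change and adenine content was 0.48 in the CaMK2a line after kainic acid, 0.46 in the CaMK2a line after PBS and 0.07 in the PV line after kainic acid. Median coding length was 1653 bases in genes called higher and 1290 bases in genes called lower, with a rho across genes of 0.15.

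**Figure D4:**
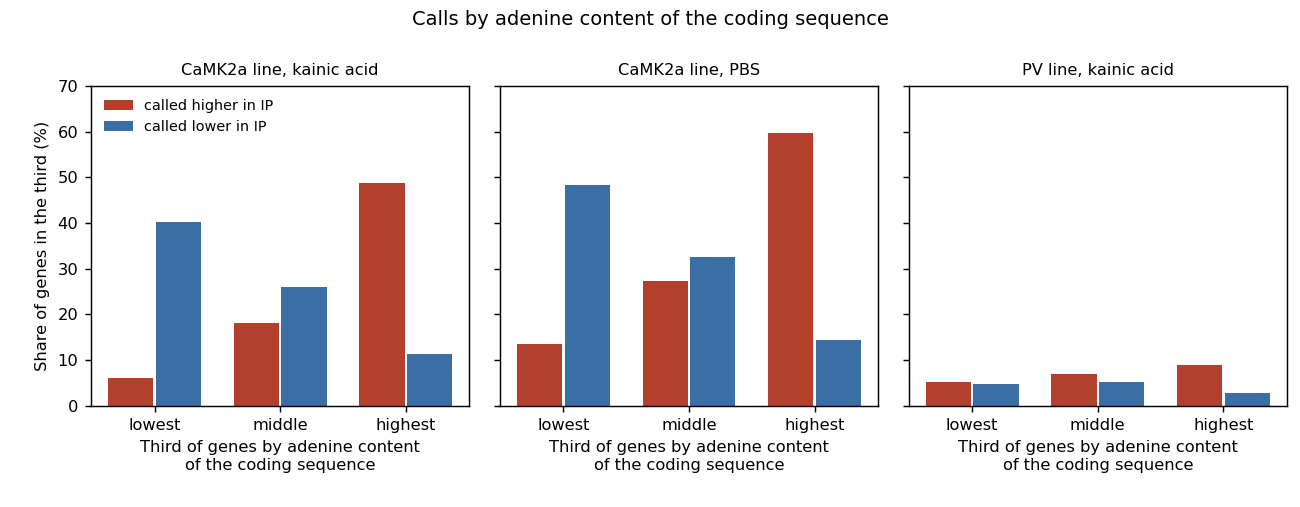
Share of genes called higher (left bar) or lower (right bar) in the IP within 3 equal groups of genes by adenine content of the coding sequence, in 3 pairs of IP and input groups. In the CaMK2a line after kainic acid the share called higher is 6.05% in the group with the least adenine and 48.9% in the group with the most, and the PV line, with far fewer calls, shows 5.18% and 8.83%.

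The same fractions after PBS showed whether the IP-to-input difference itself moved with kainic acid. In the PBS groups 3648 of 11190 genes (32.6%) were higher in the IP and 3541 (31.6%) lower, with a smaller coefficient of variation of 8.48%. Tested as a difference of differences over 11623 genes, 5 genes (0.043%) had a higher IP-to-input ratio after kainic acid than after PBS and 7 (0.0602%) a lower one. At an unadjusted p under 0.05 there were 984 genes (8.47%). With the replicate number as a block the counts were 26 higher and 31 lower, and with DESeq2 37 and 46. Without CaMK2a IP replicate 1 after kainic acid 24 were higher and 39 lower, and without IP replicate 2 after kainic acid 29 and 14. Without input replicate 2 after kainic acid 7 were higher and 14 lower, and without IP replicate 2 after PBS 10 and 4. Leaving out any of the other 8 libraries gave 2 or 3 higher and 3 to 5 lower.

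Npy, the neuropeptide Y precursor, had the largest difference by the naming rule. It had 26.2, 56.3 and 33.2 CPM in the IP after kainic acid and 79.1, 102.2 and 120.5 CPM in the input after kainic acid, against 1.54, 4.63 and 1.72 CPM in the IP after PBS and 34, 33.3 and 39.7 CPM in the input after PBS. The IP was the lower fraction under both treatments, but by -1.38 ± 0.26 after kainic acid and by -3.91 ± 0.25 after PBS, a log2 difference of 2.52 ± 0.44 (adjusted p = 0.0328). Ptgs1, the constitutive cyclooxygenase, had 8.22, 8.38 and 7.29 CPM in the IP and 26.9, 24.9 and 18.2 CPM in the input after kainic acid, against 1.54, 1.64 and 1.21 CPM in the IP and 20.0, 24.2 and 20.4 CPM in the input after PBS. Its input was near level between treatments while its IP was higher after kainic acid, with a log2 difference of 2.32 ± 0.29. Unc5b, a netrin receptor, differed by 1.95 ± 0.24, Ednrb, the endothelin B receptor, by 1.76 ± 0.29 and Rgs10, a regulator of G protein signalling, by 1.48 ± 0.25. Of these 5 genes, Ptgs1 and Unc5b kept the call when each library was left out, and Npy, Ednrb and Rgs10 lost it without 1 or another of them.

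Sst, another neuropeptide gene of interneurons, did not pass the test. It had 1159, 413.6 and 1023 CPM in the IP and 1679, 1128 and 2117 CPM in the input after kainic acid, against 80.6, 118.7 and 104.4 CPM in the IP and 640.8, 675.7 and 809.9 CPM in the input after PBS. The log2 difference was 1.89 ± 0.41 (adjusted p = 0.0984), and 1.81 with the replicate block (adjusted p = 0.000539). Of the other GABAergic genes, Gad1 differed by 0.26 ± 0.25, Gad2 by 0.82 ± 0.31, Slc32a1 by -0.35 ± 0.35 and Pvalb by -0.89 ± 0.33, none of them called. Arc differed by -0.82 ± 0.28 (adjusted p = 0.382), and by -0.86 with the replicate block (adjusted p = 0.00544).

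Of the genes with a lower IP-to-input ratio after kainic acid, Cebpd, an acute-phase transcription factor, had 9.20, 5.59 and 4.42 CPM in the IP and 24.6, 23.9 and 31.7 CPM in the input after kainic acid, against 5.56, 6.68 and 7.97 CPM in the IP and 6.22, 7.70 and 7.22 CPM in the input after PBS. Its IP stayed in one range while its input after kainic acid lay above all the others, with a log2 difference of -2.003 ± 0.35 (adjusted p = 0.0328). Itpkb, an inositol trisphosphate kinase, had 23.1, 11.9 and 17.8 CPM in the IP and 103.7, 80.2 and 119.2 CPM in the input after kainic acid, against 25.4, 24.1 and 26.6 CPM in the IP and 39.5, 38.4 and 39.3 CPM in the input after PBS (-1.91 ± 0.26). Thbd, the thrombomodulin gene, followed with -1.62 ± 0.19. It averaged 20.8 CPM in the IP and 56.4 CPM in the input after kainic acid. After PBS it averaged 21.3 CPM in the IP and 18.8 CPM in the input, so it was not depleted from the IP there. Klf3, a Kruppel-like repressor, differed by -1.55 ± 0.17 and Sh3bp4, an endocytic adaptor, by -1.33 ± 0.23, and in both the IP after kainic acid was the lowest of the 4 groups. Itpkb, Thbd and Klf3 kept the call when each library was left out.

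The PV line after kainic acid gave the same contrast for ribosomes of another neuron class. Within the PV line 767 of 11205 genes (6.85%) were higher in the IP and 460 (4.11%) lower, with a coefficient of variation of 39.5%. PV replicate 4 stood apart from the other PV replicates in both fractions, and without it 1064 genes were higher and 642 lower. Between the lines, the IP-to-input ratio was higher in the CaMK2a line for 1126 of 11816 genes (9.53%) and lower for 1143 (9.67%). With the replicate block these counts were 1732 and 1540, without PV replicate 4 they were 1776 and 1600, without CaMK2a IP replicate 3 they were 733 and 756, and without CaMK2a input replicate 3 they were 688 and 810. The lines also differed in RNA amount, pool size and the deposited table, which cannot be told apart from the line.

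All 9 PV interneuron genes had a lower ratio in the CaMK2a line, with a median log2 difference of -3.70, as did 11 of 13 general GABAergic genes, with a median of -4.62. Pvalb had 2.05, 0.857 and 1.56 CPM in the CaMK2a IP and 21.5, 22.7 and 23.99 CPM in the CaMK2a input, against 89.1, 86.2, 94.1 and 165.1 CPM in the PV IP and 4.13, 4.05, 4.75 and 10.2 CPM in the PV input. It was depleted in the CaMK2a IP and enriched in the PV IP, a log2 difference of -8.15 ± 0.53 (adjusted p = 1.99e-08). By the naming rule the next largest were Slc32a1 (-6.05 ± 0.41), Cox6a2 (-6.16 ± 0.62) and Btbd11, a BTB domain protein (-6.15 ± 0.58). Kcng4, a modulatory potassium channel subunit, followed (-5.97 ± 0.48). Gad1 had 70.4, 37.4 and 47.0 CPM in the CaMK2a IP and 279.3, 237.7 and 252.9 CPM in the CaMK2a input, against 959.5, 900.2, 939.0 and 1475 CPM in the PV IP and 199.5, 182.8, 186.5 and 198.5 CPM in the PV input.

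Of 14 pyramidal neuron genes, 7 had a higher ratio in the CaMK2a line and 0 a lower one (median 1.32). With the replicate block 11 were higher. Over all genes tested between the lines, 9.53% had a higher ratio and 9.67% a lower one. Slc17a6, a vesicular glutamate transporter, had 92.4, 64.0 and 95.3 CPM in the CaMK2a IP and 29.5, 21.7 and 20.6 CPM in the CaMK2a input, against 12.0, 15.02, 19.9 and 16.8 CPM in the PV IP and 36.9, 29.8, 35.9 and 33.0 CPM in the PV input (2.90 ± 0.32). By the naming rule, the other large differences upward were in Hmgn5 (3.14 ± 0.67) and Grem1 (3.09 ± 0.57). Iqgap2, a scaffold of the actin cytoskeleton (3.02 ± 0.39), and Bmp3, a bone morphogenetic protein (3.00 ± 0.79), followed. The call for Bmp3 was lost without CaMK2a IP replicate 2, the library with its highest level. Mpdz, by contrast, was enriched in both lines, at a log2 fold change of 3.03 for CaMK2a and 3.70 for PV.

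Counts of effector and glial genes between the lines stand beside 9.53% higher and 9.67% lower over all genes. Activity-regulated effectors had a higher ratio in the CaMK2a line for 9 of 26 genes and a lower one for 1, or for 5 with the replicate block. Scg2 differed by 2.02 ± 0.29, Inhba by 1.93 ± 0.43 and Bdnf by 1.53 ± 0.29, and Fos by -0.60 ± 0.60, which was not called (adjusted p = 0.518). With the replicate block Fos was called (-0.57, adjusted p = 0.0282), as were Camk2a (0.76, adjusted p = 0.00484), Lcn2 (-2.34, adjusted p = 0.0279), Sst (-0.63, adjusted p = 0.0471) and Aqp4 (-1.28, adjusted p = 0.0088). Glial depletion was deeper in the CaMK2a line for 15 of 19 astrocyte genes (median difference -1.48), 11 of 15 oligodendrocyte genes (-1.92) and 7 of 20 microglial genes (-1.51), with none the other way. Mbp differed by -2.38 ± 0.39 and Vtn by -2.35 ± 0.53. Within the PV line, 13 of 19 astrocyte genes were lower in the IP, with a median of -0.91. The mitochondrial share of counts in the PV line was 3.38%, 2.80%, 2.84% and 0.910% in the IP and 10.7%, 10.4%, 10.4% and 4.83% in the input, and replicate 4 had the lowest share in both.

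**Figure D5:**
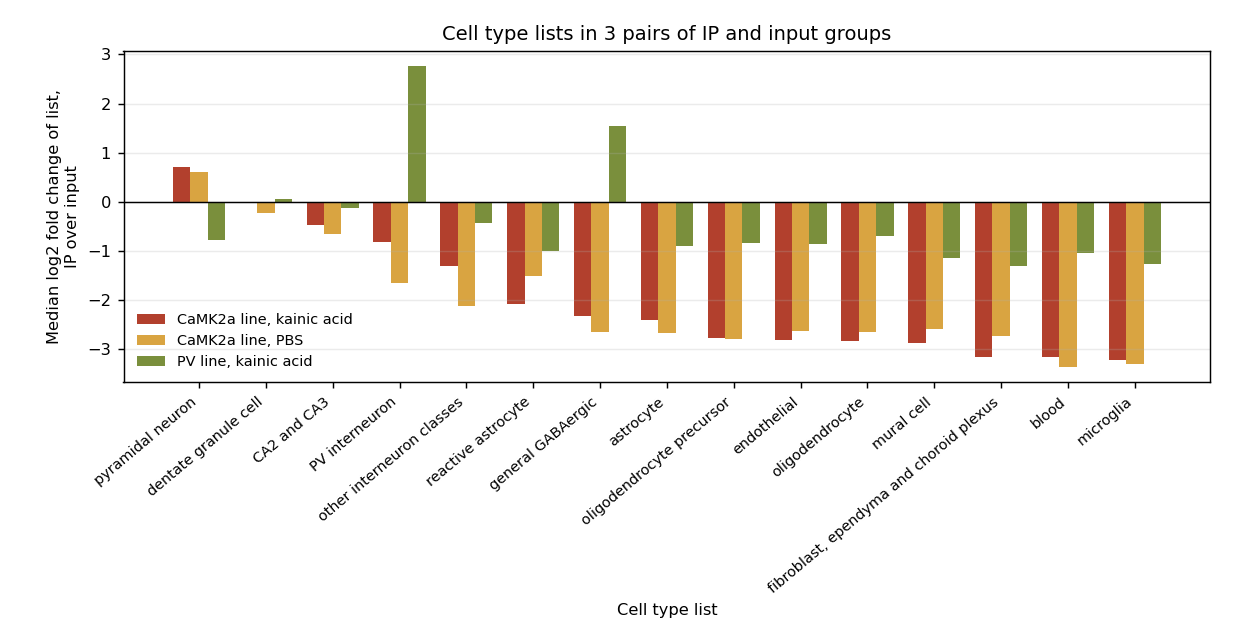
Median log2 fold change, IP over input, of 15 cell type lists in the CaMK2a line after kainic acid, the CaMK2a line after PBS and the PV line after kainic acid (bars left to right within each list). The PV interneuron list stands at -0.83 for CaMK2a and 2.76 for PV ribosomes after kainic acid, and glial and vascular lists lie below 0 in all 3.

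Overlapping genes on opposite strands limit some values. The strand setting of the counting is not given in the sources used here, and exons of Cep290, Zfp52, Ssb, Notch1, Slc32a1, Csf1r, Cx3cr1, Cebpd, Fosl1, Itpkb, Klf3, Ptgs1, Lamc3, Pou3f1, Amigo2, Cox6a2, Reln, Bdnf, Icam1, Vcam1, Spry1, Cryab, Dnaja1, Hsp90b1, Grin2b, Grin2d, Cacnb4, Shank3, Eif5b, Psma4, Zfp36, mt-Co1 and the neighbours Nefm and Nefl overlap annotated genes of the other strand, so reads of the pairs could not be told apart. Gfap and Rpl22 were not analysed here.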

How the data were processed

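RNA of CA1 lysates and of anti-HA precipitates was sequenced after linear amplification. Reads were aligned with BWA to mm10 (GRCm38) and groups compared with edgeR, per the submitters' processing notes; the counter, the annotation and the strand setting are not given in the sources used here. The authors deposited read counts per gene, RPKM values per library, linear fold ratios, and p-values with their adjusted form. Counts of the libraries used were joined across the deposited tables, and of 79845 counts held by several tables there were 0 that differed. Of the other per-sample columns, 104 were not used.

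From the counts, edgeR 4.0.16 in R 4.3.3 gave TMM factors, CPM and quasi-likelihood tests, with genes filtered at a minimum count of 10, Benjamini-Hochberg adjustment over all genes tested and a threshold of 0.05. Differences of differences were contrasts in models of 4 group means. Between-gene levels are given as deposited RPKM. DESeq2 1.42.0, other scalings and filters, each library left out, and the replicate number as a block were the alternatives. The fits were tested on simulated data.

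IP and input of 1 number came from the same lysate, per the design text, so the numbers pair the libraries. Deviations from group means correlated at 0.256, 0.229 and 0.178 between same-numbered IP and input libraries of the CaMK2a line after kainic acid, and between -0.178 and -0.0533 for other pairs.

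Genes named are fixed genes and, among called genes with a mean log2 CPM of at least 3, those with the largest changes. The 15 largest changes in each direction without overlap between groups were taken, and the 5 largest differences in each direction. Clone and predicted gene symbols were left out of both. Up to 4 members of each of 38 lists were added, with up to 2 that go the other way. Members and lists were chosen with earlier results of these data known, and the analysis of coding sequence (GENCODE M21) was added after the values were seen.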

Additional observations from a re-analysis of the deposited data

Results flagged for a closer look

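The IP-to-input difference after kainic acid differed from that after PBS, by a test of the difference itself, for 12 genes. With the replicate number as a block, 26 genes were higher and 31 lower. Only genes of the 12 that met the naming rule are listed. On the log2 scale the differences (kainic acid minus PBS) were 2.52 for Npy, 2.32 for Ptgs1, 1.95 for Unc5b, 1.76 for Ednrb and 1.48 for Rgs10, and -2.003 for Cebpd, -1.91 for Itpkb, -1.62 for Thbd, -1.55 for Klf3 and -1.33 for Sh3bp4.

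Between the lines after kainic acid the same test, without the block, called 2269 genes. The differences (CaMK2a minus PV) were 3.14 for Hmgn5, 3.09 for Grem1, 3.02 for Iqgap2, 3.00 for Bmp3, 2.90 for Slc17a6, 2.02 for Scg2, 1.93 for Inhba and 1.53 for Bdnf. They were -8.15 for Pvalb, -6.16 for Cox6a2, -6.15 for Btbd11, -6.05 for Slc32a1, -5.97 for Kcng4, -4.79 for Gad1, -2.54 for Gad2, -2.38 for Mbp, -2.35 for Vtn and -1.60 for Cx3cr1.

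In the PV line 1 replicate stood far from the other 3 in 3 measures. PV IP replicate 4 had 165.1 CPM of Pvalb and PV input replicate 4 had 10.2 CPM, where the other replicates lay within a narrow range. Mitochondrial transcripts took 4.83% of counts in PV input replicate 4. For 1 measure, chance alone marks about 1 in 20 groups of 4 in this way. The rule was run on the 5 genes named in each direction between the lines, and on total counts and mitochondrial share. Both PV fractions were screened, so some marks are expected by chance, and both Pvalb marks concern the same gene. Here all 3 marks fell on replicate 4, which also had the lowest mitochondrial share of the PV IP libraries (0.910%).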

How the results depend on the processing

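The IP-to-input calls after kainic acid in the CaMK2a line held their direction: no gene was called the opposite way under any other setting. The counts higher and lower were 2743 and 2813 with relative log expression factors, 2209 and 3344 with upper-quartile scaling, which moved the median of all genes to -0.15, 2691 and 2705 with DESeq2, and 2967 and 3102 with the replicate block. Leaving out each library gave 2207 to 2749 higher and 2346 to 2954 lower.

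For kainic acid minus PBS, 9 genes were higher with no filter, 37 higher and 46 lower with DESeq2, and 26 and 31 with the replicate block. Leaving out each library gave 2 to 29 higher and 3 to 39 lower. For CaMK2a minus PV, 1732 genes were higher with the replicate block and 1776 with PV replicates 1 to 3 only. Leaving PV replicate 4 out of the PV line on its own was chosen after seeing the data. Leaving out each library gave 688 to 1459 higher and 756 to 1594 lower. The cause was not tested.

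Some values changed sign between settings, none of them called in the main fit or with the sign reversed. Of these, the Fos difference for CaMK2a minus PV was called with the replicate block (-0.57, adjusted p = 0.0282). For Fos in the CaMK2a comparison the log2 fold change was 0.00077 with relative log expression factors, 0.014 with no filter, 0.00085 with DESeq2, 0.0021 with all 4 groups and -0.20 to 0.22 on leaving out each library. After PBS, Lcn2 averaged 0.078 CPM in the IP and 1.23 CPM in the input. Its values for kainic acid minus PBS therefore rest on few counts. For kainic acid minus PBS, Camk2a was 0.0025 with no filter and Lcn2 0.016 with DESeq2. Leaving out each library there gave -0.090 to 0.069 for Camk2a, -0.27 to 0.024 for Slc17a7, -0.66 to 0.40 for Lcn2, -0.46 to 0.60 for Aqp4, -0.73 to 0.052 for Mbp, -0.48 to 0.54 for Cx3cr1, -0.84 to 0.18 for Cldn5, -0.29 to 0.12 for Bdnf and -0.011 to 0.24 for Inhba. For CaMK2a minus PV, Npas4 was -0.076 with PV replicates 1 to 3 only, and leaving out each library gave -0.55 to 0.53 for Npas4, -1.14 to 0.018 for Fos and -0.58 to 0.052 for Arc.

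Named genes otherwise kept direction and call in 2699 of the values computed for the CaMK2a comparison, and 68 lost the call. Each group is a few pools of mice, and spread between mice was not measured.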
